A study of Mus musculus with 12 samples.

Results

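The transcripts described here are those of the interleukin-1 family (Il1a, Il1b, Il1rn, Il18 and Il33), of the interleukin-1 receptor (Il1r1 and Il1rap) and of prostaglandin synthesis (Ptgs1, Ptgs2 and Ptges) in the mouse epididymis. The 10 genes were chosen by symbol, out of 22181 genes with a probe-set of 1 symbol, with earlier results of these data known. Each is shown by its probe-set with the highest mean over the 12 arrays. RNA of the corpus and cauda epididymidis of 3 Dicer1 cKO and 3 control mice was profiled on whole transcript arrays, with 3 arrays in each of 4 groups. The groups are the cauda of Dicer1 cKO mice (Defb41iCre/wt;Dicer1fl/fl), the cauda of controls (Dicer1fl/fl), the corpus of Dicer1 cKO mice and the corpus of controls. All mice were of mixed C57Bl/6N and SV129 background and untreated as far as the labels say, their ages are not given in the sources used here, and both genotypes carry the floxed Dicer1 alleles. Cre was driven by the Defb41 promoter, active in the principal cells of caput and initial segment, so that the deletion lies upstream of both regions measured and the cKO is a model of a change in the proximal duct. The left and right tissues of 1 region of a mouse were pooled.

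Interleukin-1 beta is made mainly by activated macrophages, monocytes and neutrophils. Interleukin-1 alpha and beta signal through a receptor of Il1r1 and Il1rap, while Il1rn is the natural antagonist of that receptor. Il18 and Il33 are relatives that signal through receptors of their own, Il18 after cleavage by an inflammasome caspase and Il33 as an alarm signal from nuclei of stromal and epithelial cells. One well-known target of interleukin-1 signalling is Ptgs2, the inducible cyclooxygenase, which with the constitutive Ptgs1 turns arachidonic acid into prostaglandin H2, the substrate from which Ptges makes prostaglandin E2. Prostaglandins in the male tract are known for their action on the muscle coat and on epithelial secretion, and in the epididymis of rodents Ptgs2 is known for its high level in the distal duct.

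Ptgs2 had the largest difference of the members between regions in controls and the smallest p of the members between genotypes in the corpus. It was 6.38-fold higher in the cauda than in the corpus of control mice, and 2.66-fold higher in the cauda than in the corpus of Dicer1 cKO mice. In the corpus it was 2.70-fold higher in Dicer1 cKO mice than in controls, an effect that did not pass the adjusted threshold, whereas in the cauda the genotypes overlapped. Il1a, Il1b and Il1rn were highest in the corpus of Dicer1 cKO mice, mainly on 1 of its 3 arrays. Ptgs1 was called higher in the cauda than in the corpus of Dicer1 cKO mice, with an adjusted p just past the threshold in controls. Within each genotype Il1r1 was higher on every cauda array than on every corpus array, but it was called in neither genotype. Il18, Il33, Il1rap and Ptges differed between genotypes by less than 0.40 on the log2 scale in both regions.

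The values are log2 intensities after robust multi-array averaging (RMA). Intensities of different probe-sets are on different scales, so a level is compared here only with the same probe-set on other arrays. The group means were fitted with limma with Benjamini-Hochberg adjustment over the 41345 probe-sets of the array, and a difference is called at an adjusted p under 0.05. An unadjusted p under 0.05 is counted beside it and is no call. Each value rests on 3 arrays a group, for which an exact permutation test of a single gene cannot give a p below 0.1, and the number of arrays limits the precision.

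Array medians lay between 5.19 and 5.31, and correlations between arrays of a group over all probe-sets were 0.970 to 0.985. Dicer1 itself, whose deletion takes place elsewhere in the duct and so checks no label, was at 7.75 in the cauda of Dicer1 cKO mice and 7.58 in that of controls, and at 7.54 in the corpus of Dicer1 cKO mice and 7.49 in that of controls. The 6 measured caput genes averaged 5.44 on cauda cKO replicate 3 and 5.89 on cauda control replicate 3, against 8.44 to 9.37 on the other cauda arrays, so those 2 libraries stand apart from the other cauda arrays. The second principal component (13.8% of the variance) placed replicate 3 of the cKO corpus (-36.6) near the corpus controls (-35.0 to -9.68), and its replicates 1 and 2 far from them (58.8 and 53.7).

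**Figure D1:**
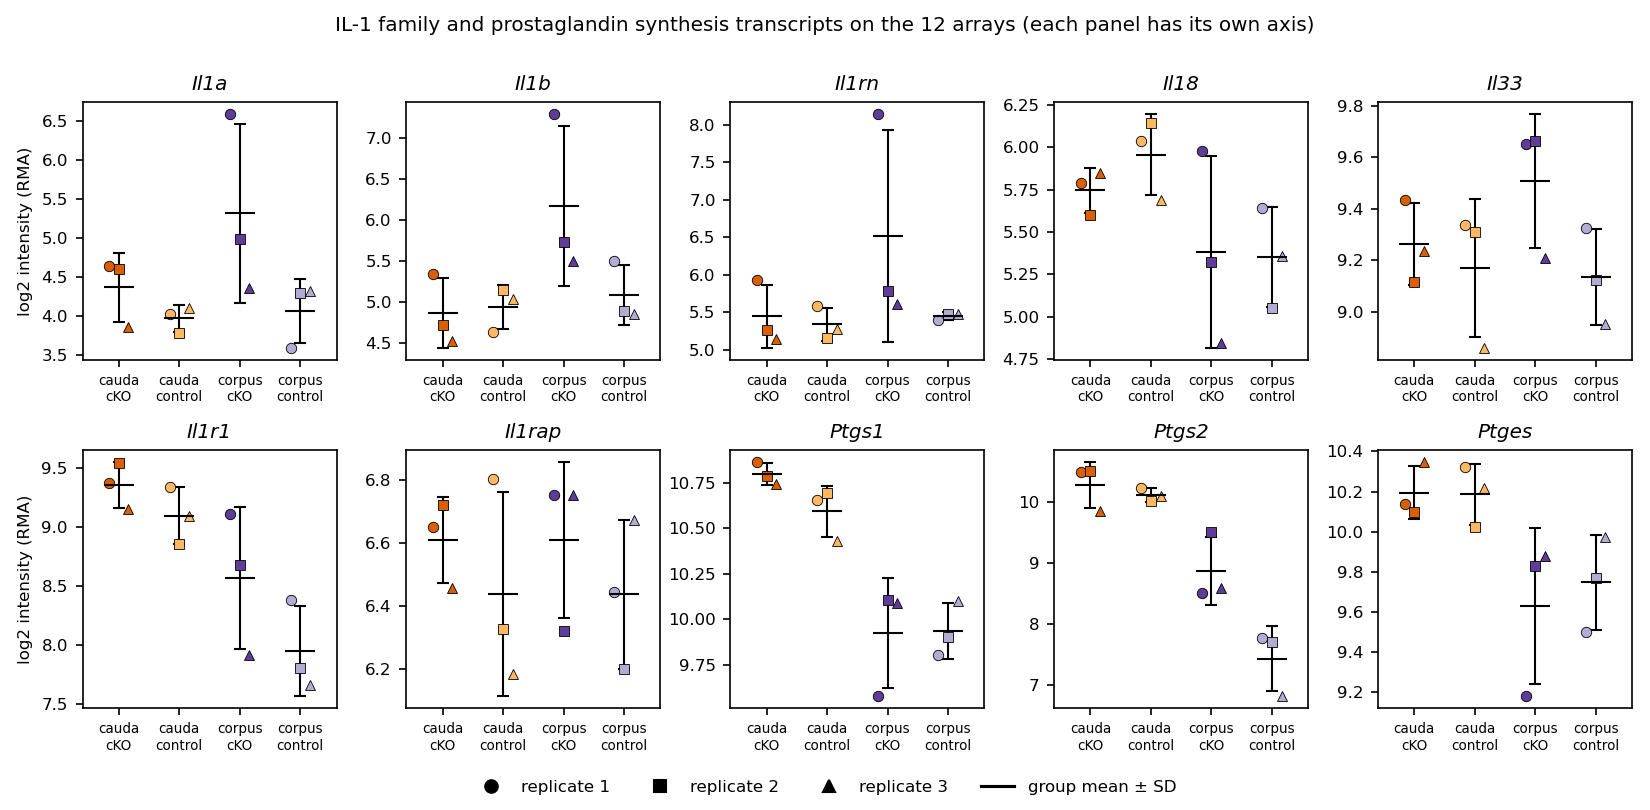
Log2 intensity (RMA, vertical axes, one scale per panel) of the 10 members on the 12 arrays, by group, with replicates as symbols and the group mean ± SD as bars. Ptgs2 lies between 6.82 and 7.77 on the corpus control arrays and above 8.5 on all others, and the arrays at the top of the Il1a, Il1b and Il1rn panels are corpus cKO replicate 1.

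The promoters of Ptgs2 and Il1b are shown first. Ptgs2 carries the largest differences, and Il1b, like Il1a, is a member whose signalling is known to induce it. The sequences are those of RefSeq for GRCm38.p6, from a table of windows of 250 bases before each gene's start, in which all 10 members had at least 1 window. Only bases outside the annotated gene are printed, 5′ to 3′ on the gene's strand, and the window of Il1a, with 36 such bases, is left out. Capitals mark the GC box GGGCGG and the NF-kB core (GGG and CC with 5 bases of any kind between them) in the first sequence and the TATA box TATAAA in the second. Both strands were searched, and the motifs do not overlap one another in these windows.
Ptgs2, chr1:150099781-150100030, plus strand: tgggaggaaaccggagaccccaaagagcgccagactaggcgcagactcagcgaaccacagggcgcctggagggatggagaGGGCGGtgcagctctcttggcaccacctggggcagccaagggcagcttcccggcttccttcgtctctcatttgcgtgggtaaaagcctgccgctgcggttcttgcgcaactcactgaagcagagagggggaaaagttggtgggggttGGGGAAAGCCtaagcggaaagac
Il1b, chr2:129371165-129371389, minus strand: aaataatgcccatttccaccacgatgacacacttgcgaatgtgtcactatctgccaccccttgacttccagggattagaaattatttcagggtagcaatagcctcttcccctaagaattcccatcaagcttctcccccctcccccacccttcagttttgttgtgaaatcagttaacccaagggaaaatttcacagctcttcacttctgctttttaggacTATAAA
In the Ptgs2 window the GC box began 170 bases and the NF-kB core 23 bases before the start. In the Il1b window the TATA box began 31 bases before the start that the table gives. Of 32851 windows of the same length, 32.7% held GGGCGG, 45.8% held the NF-kB core, 12.4% held TATAAA, 6.02% held CACGTG and 6.75% held TGANTCA, so these letters are common, and a match describes the window and is not a binding site. Of the 3 windows of Il1rn, the first held TGANTCA 141 bases and the NF-kB core 54 bases before its start and the last held the NF-kB core 51 bases before its start, and the window of Il1a held TATAAA 32 bases and TGANTCA 12 bases before its start.

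Among the agonists, Il1a, an interleukin-1 that is active also as the uncut precursor, was at 6.593, 4.997 and 4.366 on the 3 corpus cKO arrays and at 3.596, 4.299 and 4.319 on the 3 corpus control arrays. The 3 cKO arrays were all above the controls, the lowest of them by a narrow margin. The log2 difference was 1.25 (2.37-fold, standard error 0.46, unadjusted p = 0.0205, adjusted p = 0.481 from limma), and Il1a was above the array median on 1 of the 12 arrays only. In the cauda it was at 4.64, 4.61 and 3.87 in Dicer1 cKO mice and at 4.03, 3.78 and 4.11 in controls, and these overlapped (log2 difference 0.40, standard error 0.46, adjusted p = 1.00 from limma).

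Il1b, the secreted interleukin-1 that an inflammasome caspase cuts to its active form, was at 7.30, 5.74 and 5.50 on the corpus cKO arrays and at 5.50, 4.89 and 4.86 on the corpus control arrays. The lowest cKO array and the highest control array were level, so the groups touched. The log2 difference was 1.09 (2.13-fold, standard error 0.41, unadjusted p = 0.0220, adjusted p = 0.489 from limma). In the cauda Il1b was at 5.34, 4.72 and 4.53 in Dicer1 cKO mice and at 4.64, 5.14 and 5.03 in controls. These groups overlapped throughout, with a log2 difference of -0.07 (standard error 0.41, 95% interval -0.98 to 0.83).

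Il1rn, the antagonist that occupies the receptor without signalling, was at 8.15, 5.79 and 5.62 on the corpus cKO arrays and at 5.39, 5.48 and 5.48 on the corpus control arrays. All 3 cKO arrays were above the controls, but 2 of them by little and 1 by much. The log2 difference was 1.07 (2.10-fold, standard error 0.52, unadjusted p = 0.0664, adjusted p = 0.638 from limma). In the cauda Il1rn was at 5.93, 5.27 and 5.14 in Dicer1 cKO mice and at 5.59, 5.16 and 5.28 in controls, which overlapped.

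The array with the highest Il1a, Il1b and Il1rn was the same one, corpus cKO replicate 1. Against the mean of the corpus controls it was higher by 2.52 for Il1a, 2.21 for Il1b and 2.70 for Il1rn on the log2 scale. Replicate 2 was higher by 0.93, 0.65 and 0.34, and replicate 3 by 0.29, 0.41 and 0.17. The 3 genes thus had the same order over the 3 cKO arrays. Without corpus cKO replicate 1 the log2 difference became 0.61 for Il1a (unadjusted p = 0.0734), 0.53 for Il1b (unadjusted p = 0.0846) and 0.25 for Il1rn (unadjusted p = 0.293 from limma). Without corpus cKO replicate 3 it became 1.72 for Il1a (adjusted p = 0.0744), 1.43 for Il1b (adjusted p = 0.131) and 1.52 for Il1rn (adjusted p = 0.215 from limma). Over all alternatives run the adjusted p lay between 0.0744 and 0.873 for Il1a, 0.131 and 0.880 for Il1b, and 0.215 and 0.960 for Il1rn.

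**Figure D2:**
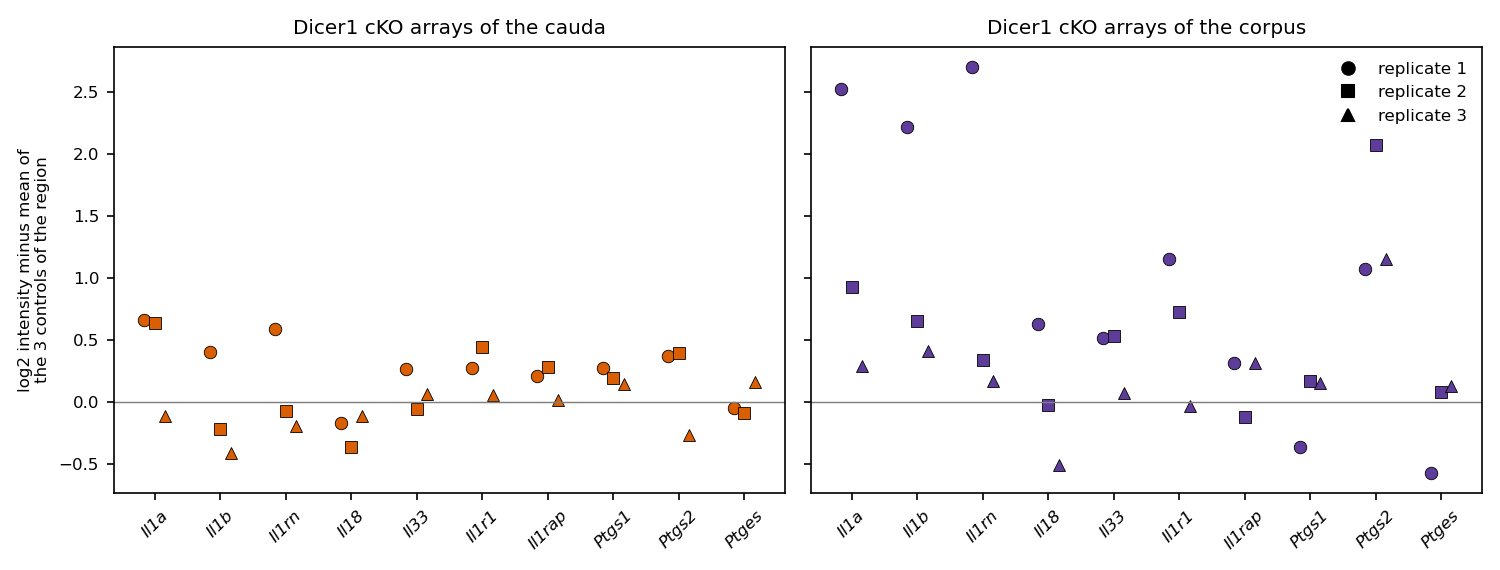
Log2 intensity of each member on each cKO array minus the mean of the 3 control arrays of the same region (vertical axis), with the cauda in the left panel and the corpus in the right panel. Corpus cKO replicate 1 lies at 2.52, 2.21 and 2.70 for Il1a, Il1b and Il1rn, while for Ptgs2 all 3 corpus cKO arrays lie above 1.

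Il18, which activates natural killer and T cells, ranged over 4.85 to 5.98 on the corpus cKO arrays and 5.05 to 5.64 on the corpus control arrays, a log2 difference of 0.03 (95% interval -0.54 to 0.60). In the cauda it ranged over 5.60 to 5.85 in Dicer1 cKO mice and 5.69 to 6.14 in controls, a log2 difference of -0.21 (95% interval -0.78 to 0.36). Il33 was well above the array medians on all 12 arrays. It was at 9.65, 9.67 and 9.21 on the corpus cKO arrays and at 9.33, 9.12 and 8.95 on the corpus control arrays, with 1 cKO array inside the control range (log2 difference 0.38, standard error 0.18, unadjusted p = 0.0648, adjusted p = 0.633 from limma). In the cauda Il33 ranged over 9.12 to 9.43 in Dicer1 cKO mice and 8.86 to 9.34 in controls, with a log2 difference of 0.09.

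Of the receptor subunits, Il1r1, the chain that binds both interleukins and the antagonist, was at 9.11, 8.68 and 7.92 on the corpus cKO arrays and at 8.38, 7.81 and 7.66 on the corpus control arrays. The groups overlapped, and the order of the cKO arrays was that of Il1a, Il1b and Il1rn. The log2 difference was 0.62 (1.53-fold, standard error 0.29, unadjusted p = 0.0535, adjusted p = 0.609 from limma), and became 0.35 without replicate 1 of the cKO corpus and 0.94 without its replicate 3. In the cauda Il1r1 was at 9.37, 9.54 and 9.15 in Dicer1 cKO mice and at 9.34, 8.86 and 9.09 in controls (log2 difference 0.26, adjusted p = 1.00 from limma). Il1rap, the accessory chain that Il33 signalling shares, ranged over 6.32 to 6.75 on the corpus cKO arrays and 6.20 to 6.67 on the corpus control arrays, a log2 difference of 0.17 (95% interval -0.26 to 0.60). In the cauda the difference was 0.17 as well. Il1rap has 2 further probe-sets, whose means of 3.36 and 3.15 were below the array medians, with log2 differences of -0.34 and -0.38 in the corpus, so the probe-sets of this gene disagree in sign.

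In prostaglandin synthesis, Ptgs2 was at 8.51, 9.50 and 8.59 on the corpus cKO arrays and at 7.77, 7.71 and 6.82 on the corpus control arrays. Every cKO array was above every control array, and the gap between the groups was wider than for Il1a or Il1rn. The log2 difference was 1.43 (2.70-fold, standard error 0.31, 95% interval 0.74 to 2.12, unadjusted p = 0.000768, adjusted p = 0.288 from limma). It lay between 1.11 and 1.61 when each array was left out in turn, with an unadjusted p of 0.000729 to 0.00353. It was not called under any of 23 alternatives, whose adjusted p lay between 0.0533 and 0.730. The highest Ptgs2 in the cKO corpus was on replicate 2, not on the replicate 1 that had the highest Il1a, Il1b and Il1rn.

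In the cauda Ptgs2 was at 10.48, 10.50 and 9.85 in Dicer1 cKO mice and at 10.23, 10.01 and 10.09 in controls. The cKO arrays lay on both sides of the controls (log2 difference 0.17, standard error 0.31, 95% interval -0.52 to 0.86, adjusted p = 1.00 from limma). The effect in the corpus minus that in the cauda was 1.26 on the log2 scale (standard error 0.44, 95% interval 0.29 to 2.24, unadjusted p = 0.0155, adjusted p = 0.726 from limma), which is no call. Without both cauda arrays numbered 3 it was 1.06 (unadjusted p = 0.0627 from limma). Ptgs2os, a transcript antisense to Ptgs2 with a probe-set of its own, was at 5.25, 5.38 and 5.68 on the corpus cKO arrays and 5.46, 5.53 and 5.49 on the corpus control arrays, which overlapped (log2 difference -0.06). Between regions Ptgs2os was higher on every cauda array than on every corpus array of the same genotype. Cauda minus corpus was 0.81 in Dicer1 cKO mice (adjusted p = 0.0405) and 0.50 in controls (unadjusted p = 0.0191, adjusted p = 0.201 from limma).

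The constitutive cyclooxygenase and the synthase had log2 differences near 0 between genotypes in the corpus, where Ptgs2 was higher on every cKO array. Ptgs1 was at 9.58, 10.11 and 10.09 on the corpus cKO arrays and at 9.80, 9.90 and 10.10 on the corpus control arrays, a log2 difference of -0.01 (95% interval -0.37 to 0.34). In the cauda it was at 10.87, 10.79 and 10.74 in Dicer1 cKO mice and at 10.65, 10.69 and 10.43 in controls. There the cKO arrays were all above the controls, by a difference of 0.21 (standard error 0.16, unadjusted p = 0.229, adjusted p = 1.00 from limma) that was small against the error. Ptges, the inducible membrane-bound prostaglandin E synthase, ranged over 9.18 to 9.88 on the corpus cKO arrays and 9.50 to 9.97 on the corpus control arrays, with a log2 difference of -0.12 (95% interval -0.56 to 0.32). In the cauda it ranged over 10.10 to 10.35 in Dicer1 cKO mice and 10.02 to 10.32 in controls, with a difference of 0.01. The probe-set of Ptgs1 was named through the annotation in a table of the study that was held only in part, so further probe-sets of this gene may have gone unseen.

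Counted together, 0 of the 10 members were called between genotypes in the corpus, where 0% of 22181 genes were called in either direction. At an unadjusted p under 0.05 the count was 3 of 10 (Il1a, Il1b and Ptgs2), all higher in Dicer1 cKO mice, against 5.49% of all genes that were higher and 4.8% that were lower at that level. In 3 of 10 (Il1a, Il1rn and Ptgs2) the groups did not overlap with cKO above, against 6.88% of all genes. The median log2 difference of the members was 0.50, against -0.03 over all genes, and 8 of 10 were positive, against 43.9% of all genes. The members' median was 0.28 when replicate 1 of the cKO corpus was left out and 0.73 when its replicate 3 was. Leaving out corpus cKO replicate 1 gave a count of 1 at an unadjusted p under 0.05, against 3.29% of all genes higher and 3.09% lower. Leaving out its replicate 3 gave 6, against 7.95% of all genes higher and 9.8% lower, so the share over all genes moved as well. Since the members were chosen with earlier results of these data known, their counts and medians are a description only.

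In the cauda 0 of 10 members were called between genotypes, against 0% of all genes, and 0 had an unadjusted p under 0.05, against 5.22% of all genes. The groups did not overlap in 1 (Ptgs1, cKO above), against 5.51% of all genes. The members' median log2 difference was 0.14, against 0.03 over all genes, and the largest was the 0.40 of Il1a. Without both cauda arrays numbered 3 the difference in the cauda was 0.72 for Il1a, 0.37 for Ptgs2, 0.23 for Il1rn and -0.40 for Il18. In that fit 0 members had an unadjusted p under 0.05, against 1.36% of all genes higher and 3.02% lower. For the effect in the corpus minus that in the cauda, 0 of 10 were called, as were 0% of all genes. At an unadjusted p under 0.05 the count was 1 (Ptgs2), against 6.44% of all genes, and the differences of Il1b (1.17, unadjusted p = 0.0696), Il1rn (0.96, unadjusted p = 0.222) and Il1a (0.85, unadjusted p = 0.220 from limma) did not reach that level. This difference uses all 4 groups and so shares its arrays with the 2 comparisons it is made of.

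**Figure D3:**
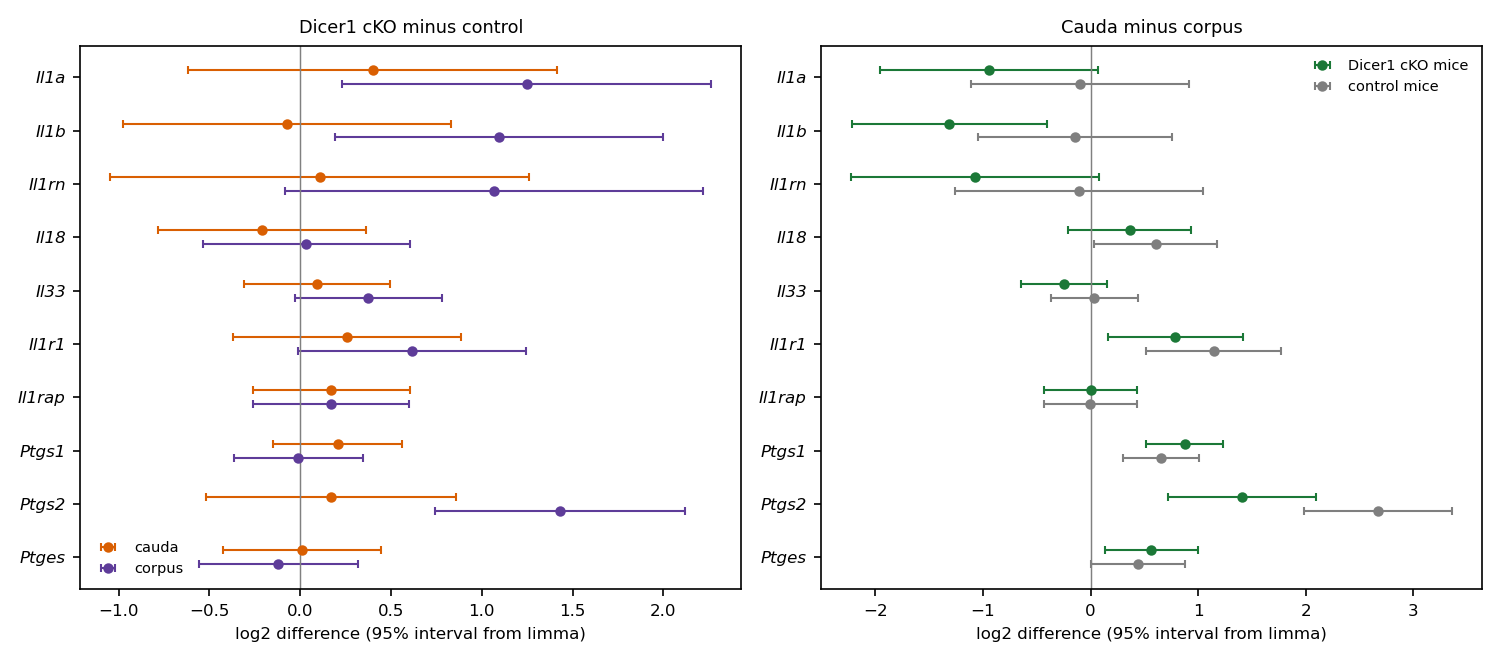
Log2 differences of the 10 members with 95% intervals from limma (horizontal axes). The left panel shows Dicer1 cKO minus control in the cauda and the corpus, and the right panel cauda minus corpus in Dicer1 cKO and in control mice. Ptgs2 lies at 1.43 for the corpus in the left panel and at 1.41 and 2.67 in the right panel, and in the left panel the intervals of Il1a, Il1b and Ptgs2 exclude 0 for the corpus.

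Along the duct, Ptgs2 was higher in the cauda of both genotypes. In Dicer1 cKO mice it was at 10.48, 10.50 and 9.85 in the cauda and at 8.51, 9.50 and 8.59 in the corpus, and every cauda array was above every corpus array. The log2 difference was 1.41 (2.66-fold, standard error 0.31, unadjusted p = 0.000864, adjusted p = 0.0373 from limma). In controls it was at 10.23, 10.01 and 10.09 in the cauda and at 7.77, 7.71 and 6.82 in the corpus, with a wide gap between the regions. There the log2 difference was 2.67 (6.38-fold, standard error 0.31, adjusted p = 0.000888 from limma), and the adjusted p lay between 0.000209 and 0.00988 over 24 alternatives. The call in Dicer1 cKO mice was less stable. It was lost with the methods' pairwise contrasts and in the fit of only the 6 arrays compared (adjusted p = 0.105 and 0.112), without cauda cKO replicate 1 or 2 (adjusted p = 0.130 and 0.147 from limma), without corpus cKO replicate 1 or 3 (0.139 and 0.0852), and without cauda control replicate 1, 2 or 3 (0.0565, 0.0552 and 0.0554). Without both cauda arrays numbered 3 it was at an adjusted p of 0.0722 from limma in Dicer1 cKO mice and 0.00737 in controls.

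Ptgs1 was higher in the cauda by 0.87 on the log2 scale in Dicer1 cKO mice (1.83-fold, standard error 0.16, adjusted p = 0.0139 from limma) and by 0.66 in controls (1.58-fold, standard error 0.16, adjusted p = 0.0510 from limma). In both genotypes all cauda arrays were above all corpus arrays. The call in Dicer1 cKO mice was lost in the fit of only the 6 arrays compared (adjusted p = 0.0888), without cauda cKO replicate 1 or 2 (adjusted p = 0.0601 and 0.0568) and without both cauda arrays numbered 3 (adjusted p = 0.0599 from limma). In controls the value lay just past the threshold, and leaving out corpus cKO replicate 1 or 3, which changes only the estimate of the spread, gave an adjusted p of 0.0218 and 0.0422 from limma. Ptges was higher in the cauda by 0.57 in Dicer1 cKO mice (1.48-fold, unadjusted p = 0.0154, adjusted p = 0.212) and by 0.44 in controls (1.36-fold, unadjusted p = 0.0488, adjusted p = 0.311 from limma), with no overlap in either genotype.

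Il1r1 was higher in the cauda by 0.79 in Dicer1 cKO mice (1.73-fold, standard error 0.29, unadjusted p = 0.0186, adjusted p = 0.235 from limma) and by 1.14 in controls (2.21-fold, standard error 0.29, unadjusted p = 0.00202, adjusted p = 0.0542 from limma). The cauda arrays were above the corpus arrays in both genotypes. In controls the adjusted p was 0.0330 without replicate 1 of the cKO corpus, 0.0138 without its replicate 3 and 0.0475 without corpus control replicate 1. Il18 was higher in the cauda of controls by 0.61 (unadjusted p = 0.0392, adjusted p = 0.280 from limma), and in Dicer1 cKO mice its regions overlapped, with a difference of 0.36. Il33 and Il1rap had differences of -0.25 and 0.00 in Dicer1 cKO mice and of 0.03 and 0.00 in controls.

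Il1a, Il1b and Il1rn had no such gradient in controls, where cauda minus corpus was -0.10, -0.14 and -0.11. In Dicer1 cKO mice it was -0.95 for Il1a (unadjusted p = 0.0651), -1.31 for Il1b (unadjusted p = 0.00845, adjusted p = 0.151) and -1.07 for Il1rn (unadjusted p = 0.0659 from limma). All cauda cKO arrays of Il1b were below all corpus cKO arrays. Without corpus cKO replicate 1 these differences were -0.31, -0.75 and -0.26.

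Between regions, 2 of 10 members were called in Dicer1 cKO mice (Ptgs1 and Ptgs2), both higher in the cauda, against 2.53% of all genes called higher. In controls 1 of 10 was called (Ptgs2), against 2.48% of all genes called higher. At an unadjusted p under 0.05 there were 4 higher and 1 lower in Dicer1 cKO mice, against 8.67% and 8.23% of all genes. In controls 5 were higher, against 9.21%, and 0 were lower, against 10.8%. The regions did not overlap in 4 members above and 1 below in Dicer1 cKO mice, against 11.2% of all genes each way, and in 5 above and 0 below in controls, against 12.3% and 15.9%. The comparisons of genotypes and of regions share their arrays, both regions came from the same mice, and which corpus array belongs to which cauda array is not given in the sources used here.

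Some lists of cell markers had the order of Il1a, Il1b and Il1rn over the corpus cKO arrays, and others did not. The 8 macrophage and monocyte markers averaged 9.51, 8.41 and 8.06 on the corpus cKO arrays and 8.13, 7.58 and 7.54 on the corpus control arrays, so corpus cKO replicate 1 was highest here as for Il1a, Il1b and Il1rn. Of these 8 markers (median log2 difference 0.83), 0 were called in the cKO corpus. At an unadjusted p under 0.05, 6 of the 8 were higher there, against 5.49% of all genes. Without corpus cKO replicate 1 (median 0.38) it was 3 of 8, against 3.29% of all genes. In the cauda the means of the 8 markers ranged over 8.21 to 8.52 in Dicer1 cKO mice and 7.97 to 8.28 in controls. Their part in the result was not tested, and in such bulk RNA more cells of a type and more RNA per cell cannot be told apart. The 7 neutrophil markers, 5 of them with means below the array medians, averaged 5.52, 4.62 and 4.32 on the corpus cKO arrays. On the corpus control arrays they averaged 4.74, 4.52 and 4.55. Corpus cKO replicate 1 was again highest, but its replicate 3 was below every control, and 0 of the 7 had an unadjusted p under 0.05. Of 6 measured lymphocyte markers, 2 were higher and 1 lower at that level in the cKO corpus, against 5.49% and 4.8% of all genes. Of 2 measured basal cell markers 0 were at that level.

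The 6 smooth muscle markers averaged 10.69, 11.33 and 10.44 on the corpus cKO arrays and 10.28, 10.35 and 9.81 on the corpus control arrays. As for Ptgs2, corpus cKO replicate 2 was the highest and corpus control replicate 3 the lowest corpus array. The order of the other arrays within each corpus group was not that of Ptgs2. In the cauda of Dicer1 cKO mice the muscle markers averaged 11.98, 12.03 and 12.34. There replicate 3 had the highest muscle mean and the lowest Ptgs2 (9.85, against 10.48 and 10.50). Of the 6 (median log2 difference 0.64), 0 were called in the cKO corpus. At an unadjusted p under 0.05, 5 of the 6 were higher there, against 5.49% of all genes. Without corpus cKO replicate 2 (median 0.36) this was 1 of 6, against 5.07% of all genes. Between regions, 4 of 6 were called higher in the cauda of Dicer1 cKO mice (median 1.33), against 2.53% of all genes. In the cauda of controls 6 of 6 were (median 2.09), against 2.48% of all genes. These medians stand beside the 1.41 and 2.67 of Ptgs2. The part of the muscle markers in the Ptgs2 differences was not tested. The 5 fibroblast markers averaged 10.85, 10.38 and 9.93 on the corpus cKO arrays, in the order of Il1a, Il1b and Il1rn. They ranged over 9.47 to 10.02 in the control corpus, with 3 higher in the cKO corpus at an unadjusted p under 0.05. The 4 endothelium markers averaged 8.30 on corpus cKO replicate 1, 7.57 and 7.62 on the other corpus cKO arrays and 7.49 to 7.54 on the corpus control arrays. The 4 clear cell markers averaged 7.06 and 7.15 on corpus cKO replicates 1 and 2 and 7.87 on replicate 3, against 7.64 to 7.83 on the corpus control arrays, with 2 of 4 lower at an unadjusted p under 0.05 (median log2 difference -0.41). Of 7 markers of the epididymal epithelium, whose mean lay between 8.53 and 9.90 on single arrays, 0 were higher and 1 lower at that level in the cKO corpus. For each of these lists the shares over all genes were 5.49% higher and 4.8% lower. Sperm and germ cell markers, 4 measured, ranged over 7.28 to 7.81 in the cKO cauda and 9.25 to 10.03 in the control cauda.

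**Figure D4:**
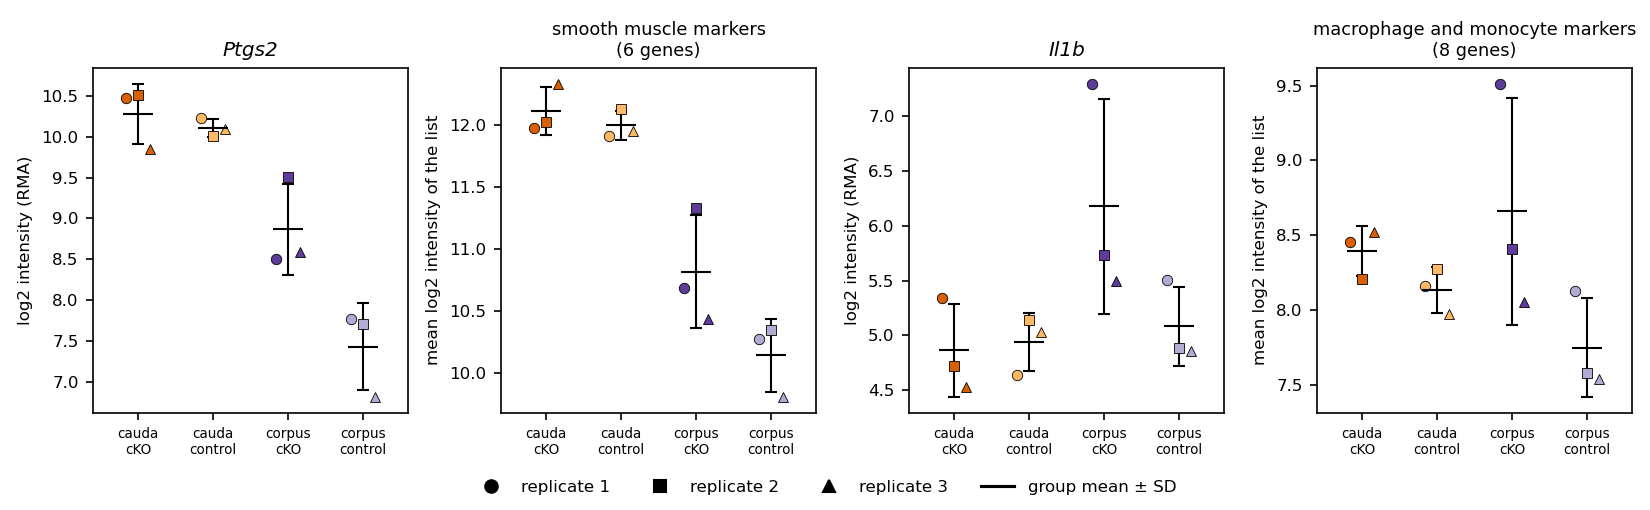
Log2 intensity (RMA, vertical axes) of Ptgs2 and Il1b beside the mean log2 intensity of 6 smooth muscle and 8 macrophage and monocyte markers on the same 12 arrays, with bars at the group mean ± SD. Corpus cKO replicate 2 is the highest corpus array for Ptgs2 and the muscle markers, and corpus cKO replicate 1 the highest array for Il1b and the macrophage markers. Cauda cKO replicate 3 is the highest array for the muscle markers and the lowest cauda array for Ptgs2.

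Across the 12 arrays the pairs of members differed in how closely they moved, which is a description only, since the arrays share their groups and corpus cKO replicate 1 weighs heavily. Pearson's r was 0.92 for Il1a with Il1rn, 0.90 for Il1b with Il1rn and 0.82 for Il1a with Il1b, and 0.89, 0.86 and 0.71 over deviations from the group means. Ptgs1 with Ptges gave 0.88, and 0.75 over the deviations. Ptgs2 with Ptges gave 0.59, and -0.07 over the deviations, so for this pair the correlation over all arrays was one between groups. Other pairs moved in opposite directions. Il1b with Ptges gave -0.84, and -0.91 over the deviations. Il1rn with Ptges gave -0.71 and -0.72, and Il1b with Ptgs1 gave -0.66 and -0.73. For Il1b with Ptgs2 the values were -0.22 and -0.06.

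By the same measure over 4659 or 4660 genes at or above the median intensity, the genes most like Il1a were Tnfaip2 (0.93), Igsf8 (0.92) and Il1rn (0.92), and those most like Il1b were Fam111a (0.94), Msr1 (0.94) and Ccl7 (0.93). Msr1 is a scavenger receptor of macrophages and Ccl7 a chemokine that attracts monocytes. The genes most like Ptgs2 were Gabrp (0.97), Fst (0.96) and Vps13a (0.96), with 0.62, 0.71 and 0.69 over deviations from the group means. Those most like Ptgs1 were Bves (0.97), Bmp3 (0.96) and Negr1 (0.96).

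The other genes of the pathway were taken from lists. Of 8 measured IL-1 family receptors and regulators (of 9 listed), 0 were called in the cKO corpus. At an unadjusted p under 0.05, 4 were higher and 0 lower there, against 5.49% and 4.8% of all genes. Those higher were Il18r1, the ligand-binding chain for Il18 (log2 difference 0.63, unadjusted p = 0.00157), and Il1rl2, the receptor for interleukin-36 (1.03, unadjusted p = 0.00492 from limma). So were Il18bp, a soluble inhibitor of Il18 (0.37), and Il1rapl1, a relative of the accessory chain (0.40), whose mean of 3.66 was below the array medians. Il18r1 was at 0.59 and Il1rl2 at 0.67 without corpus cKO replicate 1, and these 2 alone stayed at that level. They were called without its replicate 3 (adjusted p = 0.0297 and 0.0298 from limma). In that fit more genes passed in general, with 7.95% of all genes higher and 9.8% lower at an unadjusted p under 0.05. The share of all genes called in it is not given here. Il18r1 was also higher in the cauda than in the corpus of controls by 0.68 (adjusted p = 0.0342, and 0.0661 from limma without both cauda arrays numbered 3), while in Dicer1 cKO mice the difference was -0.16. The 5 further ligands measured, of the interleukin-36 group and Il1f10, had means below the array medians, and 0 of them had an unadjusted p under 0.05 in the cKO corpus.

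Downstream of the receptor, 14 of 16 listed signalling genes were measured. In the cKO corpus 0 of the 14 were called. At an unadjusted p under 0.05, 1 was higher and 1 lower there, against 5.49% and 4.8% of all genes. These were Myd88, the adaptor (0.38), and Irak1, the kinase it recruits (-0.31). Between regions both were called, in opposite directions, so 1 of the 14 was higher and 1 lower in the cauda of each genotype. Of all genes, 2.53% were called higher there in Dicer1 cKO mice and 2.48% in controls. The share called lower is not given here. Cauda minus corpus, Myd88 was at -1.09 in Dicer1 cKO mice (adjusted p = 0.00505) and at -0.88 in controls (adjusted p = 0.0158 from limma). Irak1 was higher in the cauda by 0.58 in Dicer1 cKO mice (adjusted p = 0.0192) and by 0.46 in controls (adjusted p = 0.0492 from limma). Without both cauda arrays numbered 3 the call remained for Myd88 in Dicer1 cKO mice (adjusted p = 0.0334) and was lost for Myd88 in controls (0.0921) and for Irak1 in Dicer1 cKO mice and controls (0.0599 and 0.147 from limma). Of 14 inflammasome and processing genes, 1 was higher at an unadjusted p under 0.05 in the cKO corpus, a share near the 5.49% of all genes. It was Casp4, a caspase of the non-canonical inflammasome (0.70, unadjusted p = 0.0178), which was at 0.44 (unadjusted p = 0.0868 from limma) without corpus cKO replicate 1. Casp4 had a mean of 5.15, below the array medians. Casp1, which cuts the precursors of Il1b and Il18, was at 7.20, 5.59 and 5.04 on the corpus cKO arrays and 5.11, 4.92 and 5.13 on the corpus control arrays. One cKO array lay inside the control range, and the log2 difference of 0.89 (unadjusted p = 0.0513) became 0.26 (unadjusted p = 0.188 from limma) without corpus cKO replicate 1.

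Of 18 genes known to respond to interleukin-1, 0 were called in the cKO corpus. At an unadjusted p under 0.05, 7 were higher and 0 lower there, against 5.49% and 4.8% of all genes. The median log2 difference of the 18 was 0.23, against -0.03 over all genes. Those with the smallest p were the adhesion molecules Icam1 (0.58, unadjusted p = 0.00573) and Vcam1 (0.75, unadjusted p = 0.0167) and the chemokines Ccl7 (2.12, unadjusted p = 0.00794) and Cxcl2 (0.78, unadjusted p = 0.0323 from limma). Cxcl2 had a mean of 4.60, below the array medians. When corpus cKO replicate 1 was left out the differences were 0.39 for Icam1, 0.49 for Vcam1, 1.08 for Ccl7 and 0.35 for Cxcl2. Then 3 of the 18 were higher at an unadjusted p under 0.05, against 3.29% of all genes. In the cauda 1 of 18 was higher at that level, against 1.45% of all genes. It was Mmp3, a matrix protease (0.32), with a mean of 4.09, below the array medians. This list was written with earlier results of these arrays known and is no independent evidence of a direction.

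Around the prostaglandin synthases, 19 of 21 listed genes of prostaglandin metabolism were measured, and it was between regions that they differed. In Dicer1 cKO mice 4 were called higher and 1 lower in the cauda, and likewise 4 higher and 1 lower in controls. Over all genes 2.53% were called higher in Dicer1 cKO mice and 2.48% in controls, and the share called lower is not given here. Pla2g4a, the cytosolic phospholipase that releases arachidonic acid, was higher in the cauda by 1.22 in Dicer1 cKO mice (adjusted p = 0.000406) and by 1.23 in controls (adjusted p = 0.000413 from limma). Slco2a1, the prostaglandin uptake transporter, was higher by 1.88 in Dicer1 cKO mice (adjusted p = 0.00194) and by 1.73 in controls (adjusted p = 0.00329). Hpgd, the dehydrogenase that inactivates prostaglandins, was higher by 1.55 in Dicer1 cKO mice (adjusted p = 0.000640) and by 0.85 in controls (adjusted p = 0.0192). Both the release of the substrate and the removal of the product thus had a transcript that was higher in the cauda. Ptgr1, a reductase of prostaglandin breakdown, was higher by 1.14 in Dicer1 cKO mice (adjusted p = 0.103) and by 1.33 in controls (adjusted p = 0.0459), and Akr1c18, an aldo-keto reductase, had differences of -1.65 in Dicer1 cKO mice (adjusted p = 0.0302) and -1.44 in controls (adjusted p = 0.0497 from limma). Without both cauda arrays numbered 3 the calls remained for Pla2g4a and Slco2a1 in both genotypes and for Hpgd in Dicer1 cKO mice (adjusted p = 0.00613), and were lost for Cbr1 in Dicer1 cKO mice (0.235), Hpgd in controls (0.0768), Ptgr1 in controls (0.119) and Akr1c18 in Dicer1 cKO mice and controls (0.170 and 0.179 from limma).

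**Figure D5:**
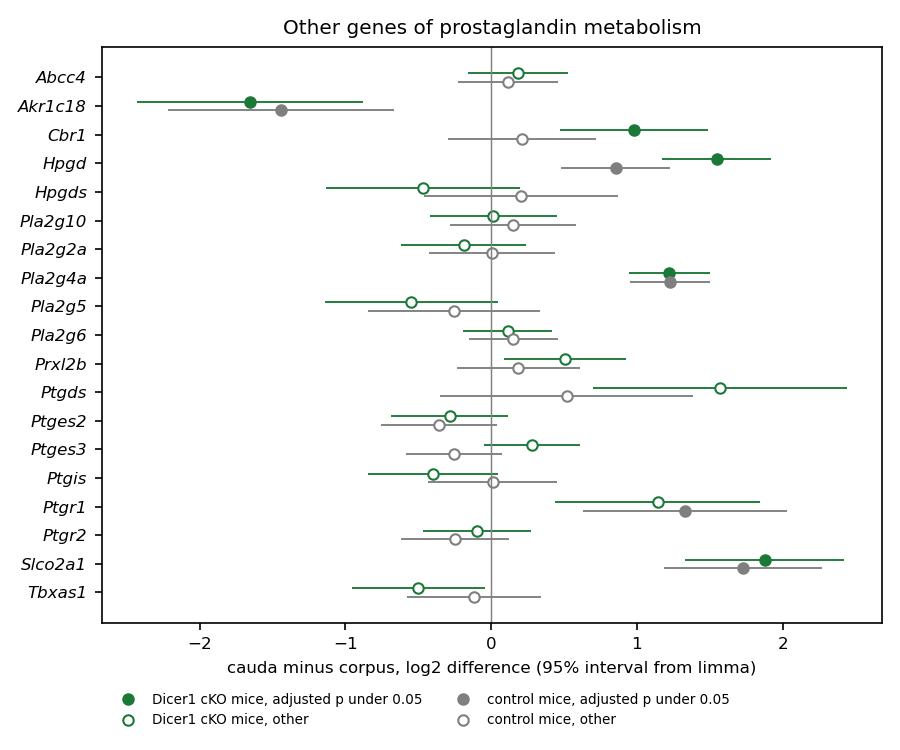
Cauda minus corpus log2 differences (horizontal axis, 95% intervals from limma) of the 19 measured genes of prostaglandin metabolism other than the members, in Dicer1 cKO mice (green) and controls (grey), with filled points at an adjusted p under 0.05. Pla2g4a, Slco2a1 and Hpgd lie to the right of 0 in both genotypes and Akr1c18 to the left.

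Between genotypes, 5.49% of all genes were higher and 4.8% lower in the cKO corpus at an unadjusted p under 0.05. Of the 19, 3 were higher and 2 lower at that level, and 0 were called. Those with the smallest p were Cbr1, a carbonyl reductase that can turn prostaglandin E2 into F2 alpha (-0.69, unadjusted p = 0.0119), Pla2g4a (0.34, unadjusted p = 0.0189), Ptgr1 (0.87, unadjusted p = 0.0198) and Hpgds, a prostaglandin D synthase (0.82, unadjusted p = 0.0205 from limma). Ptgds, also a prostaglandin D synthase, was at 11.684, 10.632 and 12.825 on the corpus cKO arrays. On the corpus control arrays it was at 12.675, 12.916 and 12.743, so corpus cKO replicate 3 lay inside the control range and the other cKO arrays below it. Hpgds was at 0.41 without corpus cKO replicate 1. Then 0 of the 19 were higher and 2 lower at an unadjusted p under 0.05, against 3.29% and 3.09% of all genes. In the cauda 2 of 19 were higher at that level, against 1.45% of all genes, namely Ptges3 (0.43) and Pla2g4a (0.34). Of 7 measured prostanoid receptors (of 9 listed), 0 were called in the cKO corpus. At an unadjusted p under 0.05, 2 of the 7 were higher there, against 5.49% of all genes. Both were receptors for prostaglandin E2, Ptger2 (0.64, unadjusted p = 0.00346) and Ptger4 (0.39, unadjusted p = 0.0224 from limma), and 0 of 7 were at that level in the cauda. Ptger2 alone stayed at that level without corpus cKO replicate 1 (0.48, unadjusted p = 0.0174 from limma). Its mean of 4.86 was below the array medians. Ptger3, a further receptor for prostaglandin E2, was at 6.03, 5.65 and 6.09 on the corpus cKO arrays. It was at 6.15, 5.85 and 5.84 on the corpus control arrays, so the groups overlapped. Ptger1 was not measured.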

How the data were processed

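RNA of 12 tissues (corpus and cauda epididymidis, 3 Dicer1 cKO and 3 control mice) was hybridised to the Affymetrix Mouse Gene 2.0 ST array. The authors normalized the intensities by RMA in Partek Genomics Suite and deposited them as log2 values, used here unchanged. Groups and replicate numbers came from the sample labels. The labels describe the kit of a miRNA array, whereas the methods and probe-set identifiers are those of the Mouse Gene array. Of 41345 probe-sets, 23521 carry 1 symbol in the annotation of the array, 1820 several and 16004 none here, and Ptgs1 was named through 1 probe-set in a table of the study.

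A mean for each of the 4 groups was fitted to all 12 arrays with limma 3.58.1 under R 4.3.3 (8 residual degrees of freedom, 3.18 prior degrees of freedom, prior variance 0.0515), with two-sided contrasts and Benjamini-Hochberg adjustment over all probe-sets. The script was tested on simulated data. All 10 members were named, other genes of a list by smallest p, 2 to 4 in each comparison described, and genes of like pattern as the 3 with the highest r and an SD of at least 0.3. The members and lists were chosen with earlier results of these data known. Alternatives were other variance models, normalizations, probe-set filters, array weights, blocks for replicate number (statmod 1.5), fits of 6 arrays and leaving out each array. Leaving out both cauda arrays numbered 3, and leaving out single arrays for the listed genes, was added after seeing the data. Promoters and gene positions are those of RefSeq, GRCm38.p6.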

Additional observations from a re-analysis of the deposited data

How the results depend on the processing

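Of the differences of single members under settings other than leaving out 1 array, 543 kept their direction and side of the threshold, 12 passed it only there, 5 no longer passed it and 15 changed sign. When 1 array was left out, these were 552, 5, 9 and 34. The depth of the data is 3 arrays a group, and levels of Il1a lie near the dim end, where the signal over background limits what can be seen. The cause of a change was not tested.

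The count of members called between regions in Dicer1 cKO mice (2) was 1 with the methods' pairwise contrasts, 0 in the fit of only 6 arrays, 0 without both cauda arrays numbered 3, and 0 to 2 when each array was left out. In controls (1) it was 3 among the brighter probe-sets, among probe-sets with 1 symbol, with array weights and with trended robust empirical Bayes, 2 after a further quantile normalization, and 1 to 3 when each array was left out. At an unadjusted p under 0.05 the count between regions in controls (5) was 3 with the methods' pairwise contrasts and 3 with arrays centred on their median, and 3 to 5 when each array was left out. In the corpus (3) it was 1 in the fit of only 6 arrays and 6 with array weights, and 1 to 6 when each array was left out. For the effect in the corpus minus the cauda (1) it was 0 without both cauda arrays numbered 3, and 1 to 3 when each array was left out.

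Replicate numbers in the labels are not said to mark a mouse, and same-numbered arrays deviated together with r of 0.02 to 0.07 (cauda), 0.09 to 0.21 (corpus), 0.07 to 0.11 (cKO, between regions) and -0.04 to 0.08 (controls). Since not every pair was over 0.1, they were not treated as pairs, although 8 of 12 arrays correlated best with an array of their own number, a hint from the data and not from the design. With a fixed replicate block the count at an unadjusted p under 0.05 was 6 in the corpus and 2 for the corpus minus the cauda, and 2 members were called between regions in controls, Ptgs2 and Il1r1 (adjusted p = 0.0246 for Il1r1 from limma). With a random replicate block (correlation 0.02) 3 were called there, Ptgs2, Il1r1 and Ptgs1 (adjusted p = 0.0474 for Il1r1 and 0.0471 for Ptgs1).

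The sign changed for some differences. After a further quantile normalization these were Ptgs1 in the corpus (0.0151) and Ptges in the cauda (-0.0264). With arrays centred they were Ptgs1 in the corpus (0.00048), Il33 between regions in controls (-0.0063) and Il1rap between regions in Dicer1 cKO mice (-9.7e-05). With array weights they were Il1b (0.0377) and Ptges (-0.0396) in the cauda and Il1rap for the corpus minus the cauda (0.0444) and between regions in controls (0.0955). With the mean of all its probe-sets Il1rap was at -0.19 in the corpus. Without both cauda arrays numbered 3 they were Il1b (0.14), Il33 (-0.0487) and Ptges (-0.0527) in the cauda and Il1rap for the corpus minus the cauda (0.0498) and between regions in controls (0.13).

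With each array left out, Il18 ranged over -0.26 to 0.30 in the corpus and -0.0535 to 0.51 for the corpus minus the cauda. Il1a ranged over -0.33 to 0.0272 and Il1b over -0.26 to 0.0648 between regions in controls, Il1b over -0.31 to 0.0935 and Il1rn over -0.13 to 0.26 in the cauda, and Il33 over -0.0609 to 0.18 in the cauda and -0.0553 to 0.19 between regions in controls. Il1rap ranged over -0.14 to 0.077 between regions in Dicer1 cKO mice, -0.18 to 0.13 in controls and -0.18 to 0.14 for the corpus minus the cauda. Ptges ranged over -0.24 to 0.10 in the corpus, -0.0742 to 0.0758 in the cauda and -0.25 to 0.0962 for the corpus minus the cauda, and Ptgs1 over -0.10 to 0.16 in the corpus.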
